A study of Homo sapiens with 32 samples.

Results

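HOXA9-high and HOXA9-low lines were the 10 highest and the 10 lowest of 28 ranked units in a series of 32 human acute myeloid leukaemia (AML) cell lines, each hybridised once, without treatment, to an Affymetrix expression array. The units were chosen by the measured level of HOXA9 alone, at 1 probe set, on the log2(signal + 16) scale. A unit was 1 line, except that the related lines KG-1 and KG-1A were averaged, as were HL-60 and PLB-985, and NOMO-1 and GF-D8 were left out for their high array background. The HOXA9-high side held HNT-34, KG-1/KG-1A, MOLM-13, KMOE-2, EOL-1, OCI-AML3, OCI-AML2, FKH-1, SHI-1 and MV4-11. The HOXA9-low side held SET2, KASUMI-1, HEL, MO7E, F-36P, MOLM-16, HL-60/PLB-985, PL-21, SH-2 and OCI-M1, and the 8 units between them were not compared.

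The sides differed in more than HOXA9. Erythroid or megakaryoblastic lines made up 6 of the 10 low units (SET2, HEL, MO7E, F-36P, MOLM-16 and OCI-M1) and 1 of the 10 high units (KMOE-2). Lines known to carry a KMT2A fusion made up 3 high units (MOLM-13, SHI-1 and MV4-11) and 0 low units. Per the labels a cytokine was in the medium of 2 high units, OCI-AML2 and OCI-AML3 (GM-CSF or SCF, in alpha-MEM), and of 1 low unit, F-36P (IL-3). SHI-1, SH-2 and OCI-M1 were kept in IMDM, the medium of MOLM-13, MV4-11 and MOLM-16 was not given, and the others were kept in RPMI medium without a named cytokine. Each comparison was therefore repeated on the same sides without the erythroid and megakaryoblastic lines, which left 9 high and 4 low units (KASUMI-1, HL-60/PLB-985, PL-21 and SH-2). The repeat shares its 13 units with the first comparison, so the pair of fits is not independent. Every line is a long-passaged culture, 1 array stands for each, and the p-values measure the spread between lines.

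HOXA9 is a homeodomain transcription factor of blood stem and progenitor cells whose gene lies in the HOXA cluster. It normally falls silent as myeloid cells mature and stays on in many AMLs, above all those with KMT2A fusions or mutant NPM1. HOXA9 protein binds DNA with TALE homeodomain partners, the MEIS and PBX proteins, of which MEIS1 and PBX3 are the best known in leukaemia. KMT2A fusion proteins act on the HOXA genes and MEIS1 through a complex that includes menin and DOT1L.

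A pair of microRNA genes entered the results through probe sets that read longer transcripts of their loci, not the mature microRNAs. Their guide-strand sequences are shown because MIR34A is the gene that passed the test between the sides and because a probe set whose levels did not overlap between the sides is listed under HOXA10-AS and MIR196B, beside HOXA9. Capitals mark the seed, bases 2 to 8, which pairs with target mRNAs. The sequences and positions are from RefSeq on GRCh38.p14, both on the minus strand, at chr1:9151735-9151756 for the first and chr7:27169528-27169549 for the second, and the seeds differ.
hsa-miR-34a-5p: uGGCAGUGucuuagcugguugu
hsa-miR-196b-5p: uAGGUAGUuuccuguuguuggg

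HOXA9 signals in the high units ran from 3999.2 in MV4-11 to 8168.7 in HNT-34, with a median of 5066.75. In the low units they ran from 1.9 in OCI-M1 to 46.5 in SET2, with a median of 5.6. On the log2 scale the sides averaged 12.35 ± 0.33 and 4.63 ± 0.58 (SD, n = 10 each). These values chose the sides and are given without a test. The high side had no natural edge: GDM-1, the first unit outside it, had a signal of 3964.7, against 3999.2 in MV4-11. The low side ended between SET2 at 46.5 and NB-4 at 112.4. The middle units otherwise fell from ML-2 (3284.5), THP-1 (3167.9), ME-1 (2339.7) and SKM-1 (2327.0) to OCI-AML5 (1412.5) and OCI-M2 (609.3), so that the middle lay mostly nearer the high side. KMOE-2, with a signal of 5615.2, ranked among the high units although it is classed with the erythroid lines.

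**Figure D1:**
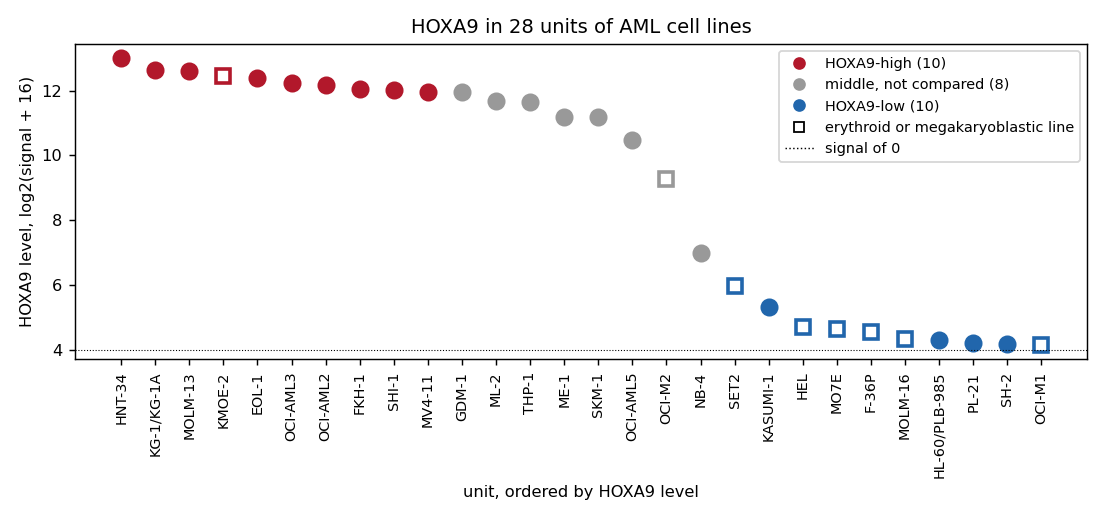
HOXA9 level, as log2(signal + 16), in each of the 28 units in rank order, coloured by side, with open squares for erythroid or megakaryoblastic lines and a dotted line at a signal of 0. The high units lie between 11.97 and 13.00, the low units between 4.16 and 5.97, and 6 of the 10 low units are open squares.

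Across 14561 genes tested with limma, 1 gene was higher in HOXA9-high units at a Benjamini-Hochberg adjusted p under 0.05, which is 0.00687% of them, and 0 were lower. At an unadjusted p under 0.05 there were 977 higher genes (6.71%) and 585 lower genes (4.02%), 10.7% together. Without the erythroid and megakaryoblastic lines 3 genes were higher (0.0206%) and 0 lower, with 606 higher (4.16%) and 288 lower (1.98%), 6.14% together, at an unadjusted p under 0.05. The gene of the first comparison did not pass in the repeat, nor the reverse. Over all 14561 genes the median log2 difference was 0.06 and 8220 differences were positive in each comparison, the background for the counts of positive members, and every difference below is HOXA9-high minus HOXA9-low. RNA quality was read from GAPDH, as its 3' signal over its 5' signal, and this ratio was above 2 for MOLM-13 (2.61) on the high side and for the HL-60/PLB-985 unit (2.57) on the low side, an average of HL-60 at 7.08 and PLB-985 at 0.933. Among the middle units, which were not compared, it was above 2 for NB-4 (6.84), GDM-1 (6.66), ML-2 (5.97) and THP-1 (2.42). Leaving out the arrays above 2 removed MOLM-13 and kept the HL-60/PLB-985 unit through PLB-985 alone, and calls lost this way are given where they occur. PTPRC, the leukocyte surface protein CD45, was at 11.25 to 13.80 in high units and 10.08 to 13.04 in low units, so every line compared carried this blood cell marker.

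The transcripts beside HOXA9 followed it in part. In RefSeq the named genes of the cluster lie in the order HOXA2, HOXA-AS2, HOXA-AS3, HOXA9, HOXA10-AS, MIR196B, HOXA11-AS and HOTTIP. One probe set that the name table lists under both HOXA10-AS and MIR196B, and which therefore stays out of the gene counts, ran from 6.32 to 8.69 in high units (median 7.12) and from 4.66 to 6.08 in low units (median 5.43). Every high unit exceeded every low unit, with KMOE-2 and SHI-1 (6.35) lowest on the high side, KG-1/KG-1A highest, and MO7E highest on the low side. The share of all probe sets without overlap was not counted, and among genes it was 0.00687% in this direction. The log2 difference was 1.90 ± 0.28 (SE), with an adjusted p of 0.00713 by limma over 35848 probe sets, of which 7 (0.0195%) passed. In the repeat the difference was 2.04, with an adjusted p of 0.236. The middle units ranged more widely: OCI-M2 was at 4.61, below all 10 low units, and ME-1 at 7.57. Of the other probe sets that passed, 1 was that of MIR34A and 5 are not in the name table and are not described here.

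Of the 16 cluster members listed beside HOXA9, 5 had a probe set of their own in the name table and 4 were tested. These were HOXA2, HOXA11-AS, HOXA-AS3 and HOTTIP, all with a positive difference and none past the threshold. Apart from HOXA9 and HOXA2, the protein-coding HOXA genes lacked such a probe set and were not assessed by name. Probe sets outside the name table may read them, so their absence here is not evidence that they did not differ. HOXA11-AS, an antisense RNA that lies across HOXA9 from HOXA2, was at 6.47 to 9.14 in high units (median 7.80) and at 5.89 to 7.59 in low units (median 6.45). Of the high units 6 of 10 lay above every low unit, and the highest level was in OCI-AML3. Its difference was 1.30 ± 0.33, with an adjusted p of 0.234. HOXA-AS3, the antisense RNA next to HOXA9, was at 5.21 to 7.16 against 4.29 to 6.58, a difference of 1.07 ± 0.32 with an adjusted p of 0.291. HOXA2, at the opposite end of the cluster, was dim in both sides, at 4.51 to 7.82 (median 5.91) against 4.14 to 6.12 (median 4.54) where the median of all probe sets was 6.73, with the highest levels in FKH-1 and KG-1/KG-1A, and differed by 1.06 ± 0.41 (adjusted p = 0.385), and by 0.41 ± 0.61 in the repeat. HOTTIP differed by 0.30 ± 0.23 at its brightest probe set (adjusted p = 0.652) and by 1.19 ± 0.49 at another.

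MEIS1, the TALE partner that stabilises HOXA9 on DNA, had the largest difference of its family without passing the threshold. It ran from 7.26 in EOL-1 to 11.86 in SHI-1 on the high side (median 11.03) and from 4.22 in SH-2 to 9.88 in HEL on the low side (median 6.67). Of the high units 7 of 10 lay above every low unit, and EOL-1, KG-1/KG-1A (8.09) and OCI-AML3 (8.83) lay within the low range. The log2 difference was 3.32 ± 0.73, about 9.98-fold, with an adjusted p of 0.202. On the low side the lines split: KASUMI-1 (5.94), PL-21 (5.57), HL-60/PLB-985 (5.01) and SH-2 (4.22) were below all 6 erythroid and megakaryoblastic units, which ran from 6.59 in OCI-M1 to 9.88 in HEL. Without those lines the sides no longer overlapped, as for 0.295% of all genes in that direction. The difference was then 5.07 ± 0.82, with an adjusted p of 0.0934. MEIS1 passed in that repeat without KG-1/KG-1A, without EOL-1, and with KG-1 and HL-60 alone in place of the averages. Across the middle units MEIS1 did not keep to the HOXA9 order, from 11.48 in GDM-1 to 4.47 in THP-1, which carries a KMT2A fusion and had a HOXA9 signal of 3167.9.

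PBX3, the PBX protein most often found high with HOXA9 in AML, had a high-side median of 11.09, between KG-1/KG-1A at 7.83 and SHI-1 at 13.05, and a low-side median of 9.29, between KASUMI-1 at 5.33 and F-36P at 10.99. It was above every low unit in 5 of 10 high units, which were SHI-1, FKH-1, MOLM-13, OCI-AML2 and MV4-11. The difference was 2.03 ± 0.74 (adjusted p = 0.359) and 2.61 ± 1.09 in the repeat (adjusted p = 0.799). The remaining TALE genes were close to level: MEIS3 differed by 0.33, PKNOX1 by 0.05, TGIF2 by 0.08, PKNOX2 by -0.14, MEIS2 by -0.16, TGIF1 by -0.30, PBX2 by -0.35 and PBX4 by -0.77, none with an adjusted p below 0.518. In the repeat TGIF1 differed by -1.36 ± 0.61. The signs for PKNOX1 and TGIF2 turned when each array was centred on its median, and those for MEIS2 and TGIF1 turned, as these did, when single units were left out. Of the 10 tested TALE genes, 5 had a positive difference and the median was -0.04.

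MIR34A, the gene of a microRNA known for holding back cell division and for its induction after DNA damage, was the gene higher in HOXA9-high units. Its probe set read 9.79 in FKH-1, 9.51 in HNT-34, 9.49 in OCI-AML3, 9.46 in MOLM-13, 8.61 in OCI-AML2, 8.34 in MV4-11, 8.09 in EOL-1, 6.48 in SHI-1, 6.04 in KMOE-2 and 5.35 in KG-1/KG-1A. In the low units it ran from 4.51 in MOLM-16 to 6.06 in SH-2, with a median of 4.68. In 7 high units it thus stood more than 2 log2 units above the low side, SHI-1 stood just above it, and KMOE-2 and KG-1/KG-1A lay within it. The log2 difference was 3.21 ± 0.51, about 9.27-fold, with an adjusted p of 0.0419. In the repeat it was 3.09 ± 0.74, with an adjusted p of 0.429. The call was lost when any of 16 of the 20 units was left out, and it held without KG-1/KG-1A, KMOE-2, SHI-1 or SH-2, with an adjusted p between 0.0019 and 0.124 over these fits. It was also lost without the arrays of high GAPDH ratio (difference 3.07, adjusted p = 0.115) and without the KMT2A-fusion lines (3.22, adjusted p = 0.118). Middle units covered the same range, from 10.08 in GDM-1 and 9.34 in ML-2, both with high GAPDH ratios, to 4.44 in ME-1.

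Genes known to be induced by DNA damage were then drawn together as a list, after the MIR34A values had been seen, so that their counts are a description only. Of the 23 tested, 21 had a positive difference, with a median of 0.78 against 0.06 over all genes. At an unadjusted p under 0.05, 14 of the 23 were higher and 0 lower, against 6.71% and 4.02% of all genes, and MIR34A alone passed after adjustment. In the repeat 21 of 23 were positive with a median of 0.86. At an unadjusted p under 0.05, 10 were higher and 0 lower there, against 4.16% and 1.98% of all genes. MIR34A, whose values prompted the list, is counted among the 23 in both comparisons.

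DDB2, a sensor of ultraviolet damage in DNA, was at 9.87 to 11.37 in high units (median 10.86) and at 7.80 to 10.60 in low units (median 9.52). The difference was 1.42 ± 0.28, with an adjusted p of 0.121, and 1.46 ± 0.27 in the repeat. CDKN1A, which encodes the cyclin-dependent kinase inhibitor p21, had a high-side median of 10.66, between KG-1/KG-1A at 7.36 and MOLM-13 at 12.01, and a low-side median of 7.85, between OCI-M1 at 6.64 and SH-2 at 9.71. Its difference was 2.27 ± 0.56 (adjusted p = 0.205), and 7 of 10 high units lay above every low unit. PHLDA3, a repressor of AKT, differed by 1.57 ± 0.38 (adjusted p = 0.205), FAS, a death receptor, by 1.84 ± 0.59 (adjusted p = 0.304), RRM2B, a ribonucleotide reductase subunit, by 1.11 ± 0.32 (adjusted p = 0.287) and RPS27L by 0.85 ± 0.25 (adjusted p = 0.293). In the repeat the FAS difference was 0.84 ± 0.64 and that of PHLDA3 1.07 ± 0.44, while CDKN1A, RRM2B and RPS27L were at 2.21, 1.29 and 1.06. MDM2, a ubiquitin ligase, differed by 0.48 ± 0.24 and by 0.86 ± 0.33 in the repeat. SESN2 and GDF15 had differences of -0.13 and -0.02, and of -0.15 and 1.40 in the repeat.

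The same high units were low across this list. With each gene centred on its mean over the 28 units, the average of the 23 genes was positive in 7 high units, from 0.44 in EOL-1 to 1.02 in HNT-34. It was negative in SHI-1 (-0.55), KMOE-2 (-0.35) and KG-1/KG-1A (-0.28), and in all 10 low units, from -0.91 in MO7E to -0.27 in SH-2. SHI-1 was among the 3 lowest of the 10 high units for 17 of the 23 genes, KG-1/KG-1A for 16 and KMOE-2 for 15, while HNT-34 was among them for 0. In the middle, GDM-1 (1.405), ML-2 (0.50) and OCI-AML5 (0.34) were positive and the other 5 units negative. Of these, GDM-1, ML-2, THP-1 and NB-4 had high GAPDH ratios. Within the 20 units compared, the list score was thus positive in 7 high units and negative in the remaining 3 and the low side. The list was drawn up after MIR34A had been seen and includes it. MIR34A was itself lowest, among high units, in the same 3, so this split is a description and not independent of it. Mutation status and DNA damage in these lines were not analysed here.

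**Figure D2:**
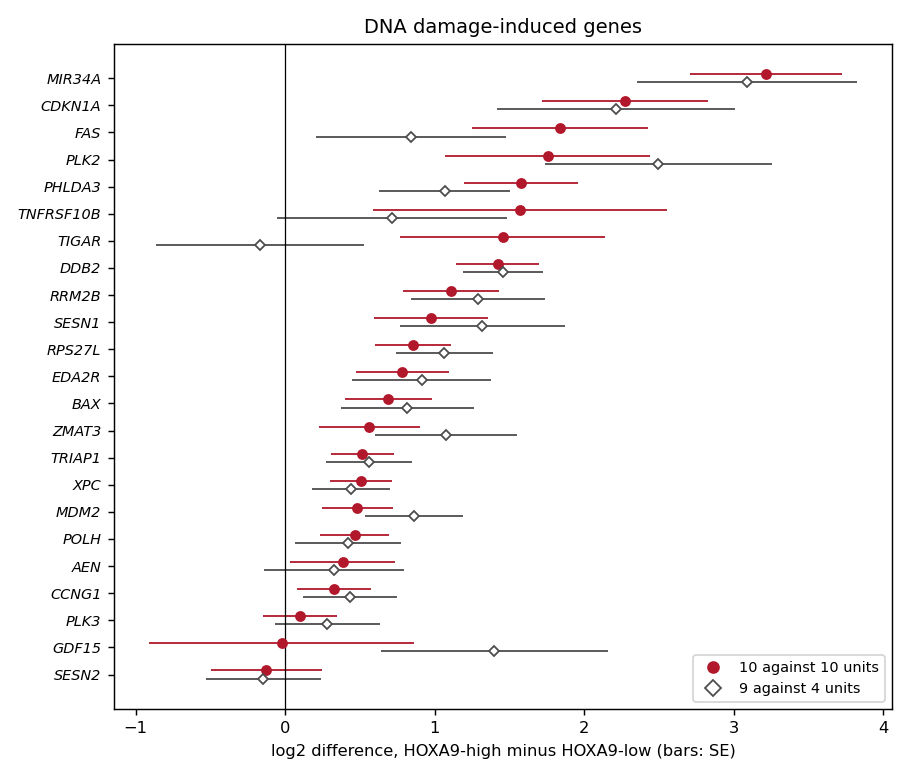
Log2 difference, HOXA9-high minus HOXA9-low, with its standard error, for the 23 tested DNA damage-induced genes in the comparison of 10 against 10 units (filled circles) and in the repeat of 9 against 4 units (open diamonds). MIR34A, at 3.21, is the one gene that passed, in the first comparison, and 21 of the 23 lie right of 0 in each.

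Other genes higher in most HOXA9-high units did not pass. FAM43A, whose function is little known, was the only one of 14561 genes whose sides did not overlap (0.00687%). Its levels ran from 9.67 in KMOE-2 to 12.74 in OCI-AML3 on the high side and from 5.35 in OCI-M1 to 9.46 in SH-2 on the low side, a difference of 2.71 ± 0.53 with an adjusted p of 0.121, and 1.65 ± 0.44 in the repeat. The 6 erythroid and megakaryoblastic low units, at 5.35 to 8.95, all lay below the other 4, at 9.09 to 9.46. FAM43A and FCMR lay outside the rule for named genes and were chosen after their values were seen. FCMR, the receptor for IgM, differed by 2.26 ± 0.40 (adjusted p = 0.0806), with 9 of 10 high units above every low unit and KMOE-2 the exception. IL3RA, the interleukin-3 receptor alpha chain and an AML surface target, ran from 5.02 in KMOE-2 to 9.81 in FKH-1 against 4.39 in HEL to 7.57 in PL-21. The IL3RA difference was 2.54 ± 0.59 with an adjusted p of 0.202, and 2.74 ± 0.73 in the repeat.

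On the lower side 0 genes passed, and the 10 with the smallest p were SLC39A8, MAGED1, ZNF436, LNP1, USP24, KLF1, PPP4R1, SLC22A23, PSMB7 and SEC13. SLC39A8, a zinc and manganese transporter, was at 10.55 to 11.88 in high units and at 11.72 to 12.99 in low units, a difference of -0.96 ± 0.20 (adjusted p = 0.193). MAGED1, a MAGE family adaptor protein, had a median of 7.20 in high units and 11.05 in low units, but KMOE-2 (11.30), OCI-AML3 (10.31) and SHI-1 (9.70) lay within the low range. Its difference was -2.92 ± 0.66, with an adjusted p of 0.202, and -2.27 ± 0.75 in the repeat. KLF1, the erythroid transcription factor, had a larger difference of -3.64 ± 0.89 (adjusted p = 0.205), and only -0.71 ± 0.60 without the erythroid and megakaryoblastic lines. The other 7 had differences between -0.49 (PSMB7) and -2.19 (SLC22A23), the last of which was -0.81 in the repeat.

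Without the erythroid and megakaryoblastic lines, KCNQ1, CPNE8 and LACC1 were the 3 genes higher in HOXA9-high units. In each of them the sides did not overlap, as for 0.295% of all genes in that direction. KCNQ1, a voltage-gated potassium channel, was at 4.59 in KASUMI-1, 4.59 in PL-21, 4.73 in SH-2 and 5.06 in HL-60/PLB-985, and at 7.09 to 9.63 in the 9 high units (median 8.28). The difference was 3.65 ± 0.42, with an adjusted p of 0.00339. With all lines it was 2.89 ± 0.52 (adjusted p = 0.0806). KMOE-2 at 4.73 lay among the low units and OCI-M1 at 7.80 among the high ones, and the call was made without KMOE-2 (adjusted p = 0.00231) or without OCI-M1 (adjusted p = 0.0178). The other tested probe sets of these genes were also positive in the repeat and did not pass, at 0.88 for KCNQ1 (adjusted p = 0.860 over all probe sets), 2.76 for CPNE8 (adjusted p = 0.343) and 0.87 for LACC1 (adjusted p = 0.807).

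CPNE8, a calcium-dependent phospholipid-binding copine, was at 4.47 in KASUMI-1, 4.94 in PL-21, 5.79 in SH-2 and 5.99 in HL-60/PLB-985 against 8.25 to 11.26 in the 9 high units (median 9.53). The difference was 4.51 ± 0.49, with an adjusted p of 0.00339. With all lines it was 2.37 ± 0.74 (adjusted p = 0.297), since 5 of the 6 erythroid and megakaryoblastic low units were at 8.74 to 10.16, MO7E being at 5.51. The CPNE8 call was lost without the arrays of high GAPDH ratio (4.03, adjusted p = 0.158). LACC1, a laccase domain enzyme of macrophages, was at 4.19 in PL-21, 4.34 in SH-2, 5.56 in HL-60/PLB-985 and 5.87 in KASUMI-1 against 7.61 to 10.01 in the high units (median 8.72). Its difference was 3.76 ± 0.46, with an adjusted p of 0.00517, and 2.30 ± 0.61 with all lines, where MO7E (10.41) exceeded every high unit. LACC1 did not pass without the KMT2A-fusion lines (3.54, adjusted p = 0.105). All 3 genes passed in each of the 13 fits that left out 1 unit.

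**Figure D3:**
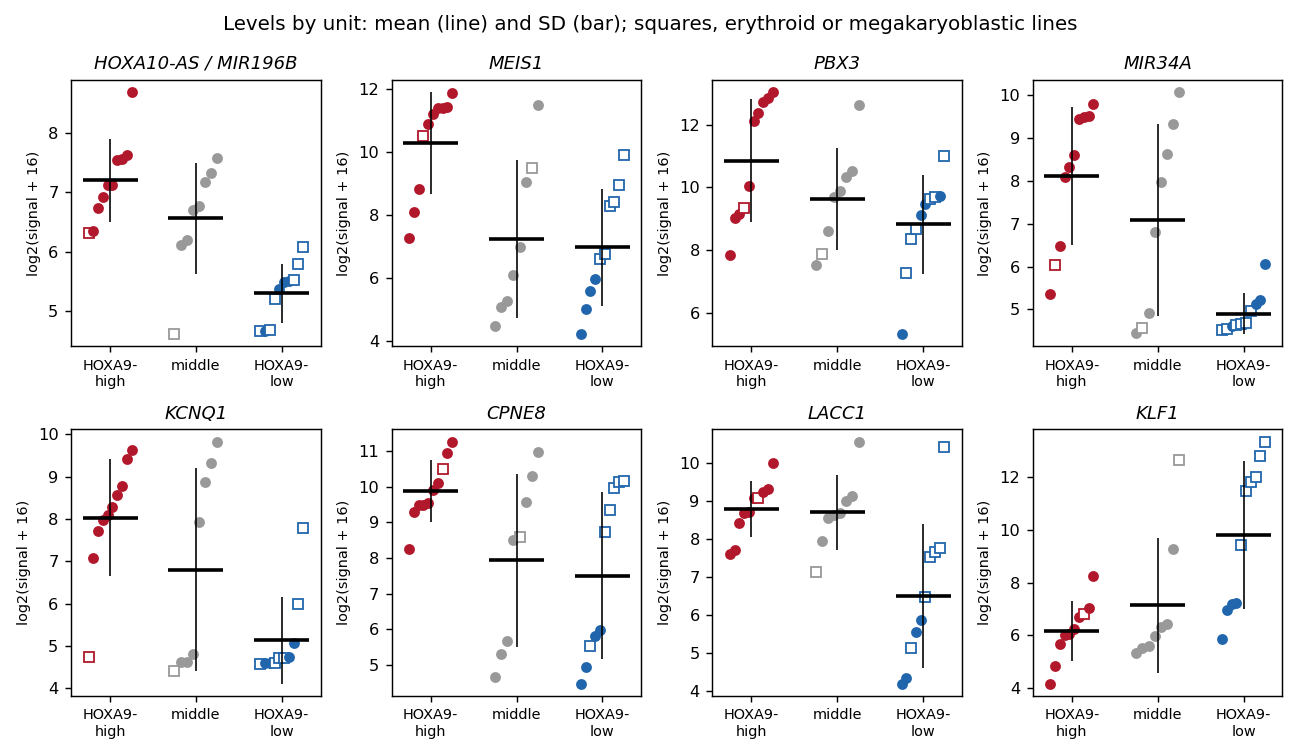
Levels of the HOXA10-AS/MIR196B probe set and 7 genes, as log2(signal + 16), in the high, middle and low units, each point 1 unit, with the mean as a line and the SD as a bar, and open squares for erythroid or megakaryoblastic lines. High and low units do not overlap for that probe set, the 6 open squares on the low side of KLF1 all lie at 9.43 or above, and 5 of the 6 lie at 8.74 or above for CPNE8.

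The blood lineage lists moved with the make-up of the sides. Of 17 tested erythroid genes, 0 had a positive difference, with a median of -1.63. At an unadjusted p under 0.05, 9 were lower, against 4.02% of all genes. Without the erythroid and megakaryoblastic lines 13 were positive, the median was 0.19 and 0 had an unadjusted p under 0.05. KLF1, CA1 and HBZ had the largest differences, at -3.64, -3.37 and -2.68, and in the repeat -0.71, 0.08 and 0.13. KMOE-2, the erythroid line on the high side, had KLF1 at 6.79, against 9.43 to 13.35 in the 6 erythroid and megakaryoblastic units of the low side. Of 18 megakaryocyte and platelet genes 7 were positive with a median of -0.30, and 16 with a median of 0.33 in the repeat. The erythroid score, the average over the list after centring each gene, ran from -1.78 to 0.44 on the high side (highest in KMOE-2) and from -1.54 to 3.29 on the low side. In these bulk samples fewer cells of a type and less RNA per cell cannot be told apart.

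Granule genes of neutrophil precursors turned between the comparisons. Of 14 tested, 9 had a positive difference with all lines (median 0.28) and 1 in the repeat (median -1.46), with none past the adjusted threshold in either. MPO, the myeloperoxidase of primary granules, was at 14.71 to 15.20 in all 4 low units of the repeat and at 5.09 to 15.09 in its 9 high units, where SHI-1 was the single line at that level and MOLM-13 followed at 9.66. The repeat difference was -6.31 ± 1.34, with an adjusted p of 0.414, against -1.40 ± 1.61 with all lines. MPO passed, lower on the high side, in the repeat without SHI-1 and without the KMT2A-fusion lines. ELANE and PRTN3, proteases of the same granules, differed by -3.89 ± 2.11 and -3.45 ± 1.66 in the repeat. The repeat therefore set the HOXA9-high lines against 4 units that all had high MPO, and the part of this in its calls was not tested.

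Monocyte and macrophage genes were mostly positive in both, 15 of 18 with a median of 0.87 and 12 of 18 with a median of 0.68. CD86, a costimulatory receptor of antigen-presenting cells, was at 6.18 to 9.65 in high units and at 4.93 to 7.19 in low units, a difference of 1.72 ± 0.41 (adjusted p = 0.205). MS4A7, a macrophage membrane protein, was at 5.65 to 12.03 against 4.64 to 9.61, a difference of 3.08 ± 0.80 (adjusted p = 0.234) that was 1.48 ± 1.10 in the repeat. LYZ, the lysozyme of monocytes and granulocytes, differed by -1.34 ± 1.16. MHC class II genes had positive differences in 9 of 11 (median 0.36) and in 10 of 11 in the repeat (median 1.32), with HLA-DRB1 at 2.26 ± 0.97 there and none passing.

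**Figure D4:**
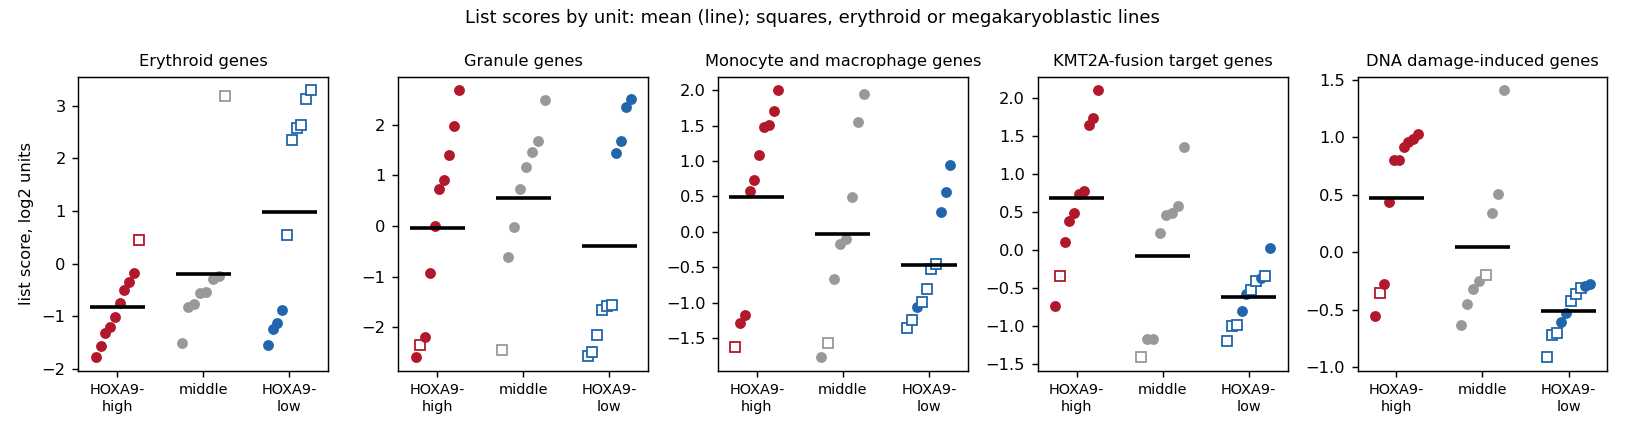
Scores of 5 gene lists by unit, each the average over a list's tested genes after centring each gene on its mean over the 28 units, in log2 units, with the mean of each side as a line and open squares for erythroid or megakaryoblastic lines. On the low side the granule score splits the 6 open squares from the 4 other units. The DNA damage-induced score is negative for all 10 low units and positive for 7 high units. Its list was drawn up after the MIR34A values had been seen and includes MIR34A.

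Known partners and targets of the HOXA9 programme were uneven. Of 15 tested KMT2A-fusion target genes 13 had a positive difference, with a median of 1.30, and 0 passed; in the repeat 10 were positive with a median of 0.24. SKIDA1, one of these targets, was at 4.40 to 11.11 in high units and at 4.33 to 6.57 in low units, with KMOE-2 and MOLM-13 highest, and differed by 2.29 ± 0.78 (adjusted p = 0.319). ZC3H12C, an RNA-binding regulator, differed by 1.28 ± 0.98 with all lines and by 4.38 ± 0.86 in the repeat (adjusted p = 0.356), and MEF2C, a transcription factor, by 1.30 ± 0.96 and 3.94 ± 1.08. ZC3H12C passed in the repeat without the KMT2A-fusion lines and in the repeat with all units above a HOXA9 signal of 1000 on the high side. Of 17 HOXA9 and MEIS1 target genes 8 were positive and the median was -0.03: MYB differed by 0.00 ± 0.23 and CDK6 by -0.13 ± 0.30. FLT3, a receptor tyrosine kinase, differed by 1.93 ± 1.21 with all lines and by -0.48 ± 1.32 in the repeat, and TRIB2 by -2.32 ± 0.96 and -0.46 ± 1.06. IGF1R, the insulin-like growth factor receptor, had a median of 8.59 in high units and 10.51 in low units, a difference of -1.57 ± 0.59 (adjusted p = 0.369).

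Of 19 menin, DOT1L and Polycomb genes 8 were positive, with a median of -0.05. AFF1, a member of the elongation complex joined by KMT2A fusions, was at 12.47 to 13.68 in high units and at 11.53 to 12.95 in low units, a difference of 0.62 ± 0.20 (adjusted p = 0.301). KMT2A itself, MEN1 and DOT1L differed by -0.20, 0.18 and 0.40, and by -0.08, 0.27 and -0.25 in the repeat. The HOXB genes, the sister cluster on another chromosome, were positive in 8 of 9 tested (median 0.71) and in 9 of 9 in the repeat (median 1.504), with none passing. HOXB6 had the largest of them, at 1.87 ± 0.98, and HOXB4 was the exception at -0.58 ± 0.84, and at 1.40 ± 0.99 in the repeat.

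Cytokine signalling genes depended on the lines kept. Of 14 PIM, JAK and STAT genes 5 were positive with a median of -0.15, and 12 with a median of 0.35 in the repeat. SOCS2, a feedback inhibitor induced by STAT5, differed by 1.32 ± 0.77 and by 3.45 ± 0.84 in the repeat (adjusted p = 0.434), and PIM1, a kinase induced by the same factor, by -0.22 ± 0.96 and 2.74 ± 0.95 (adjusted p = 0.751). PIM1 passed in the repeat with RPMI lines alone. JAK2 was at 7.11 to 8.88 in the high units (median 8.31) and at 7.51 to 13.23 in the low units (median 8.75), where OCI-M1 (13.23), F-36P (11.56), HEL (10.86) and SET2 (10.44) were highest and MO7E was lowest. The JAK2 difference was -1.23 ± 0.61 (adjusted p = 0.486), and 0.29 ± 0.31 in the repeat.

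Of the lists left, interferon-induced genes were positive in 10 of 19 (median 0.06) and in 17 of 19 in the repeat (median 0.54), stem and progenitor genes in 9 of 18 (median 0.16) and 15 of 18 (median 0.93), and surface receptor genes in 12 of 18 (median 0.61) and 10 of 18 (median 0.23). BCL2 family genes were positive in 12 of 14 (median 0.24) and 8 of 14 (median 0.30), and cell cycle genes in 9 of 20 (median -0.08) and 6 of 20 (median -0.20). Among cell cycle genes CDK4, a G1 kinase, differed by -0.50 ± 0.17 and the kinase AURKA by -0.43 ± 0.17, while MKI67, the proliferation marker, differed by 0.05 ± 0.27. Among markers of other cells, B cell markers were positive in 3 of 5 (median 0.22) and T and NK cell markers in 5 of 6 (median 0.29). Stromal and epithelial markers were positive in 4 of 8 (median 0.01). Such differences cannot show how pure a culture was. In single units EPCAM reached 8.41 on the high side and 12.31 on the low side, and NCAM1 reached 12.27 and 13.08. Of the 20 lists other than the DNA damage-induced genes, 0 had a member past the adjusted threshold in either comparison.

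**Figure D5:**
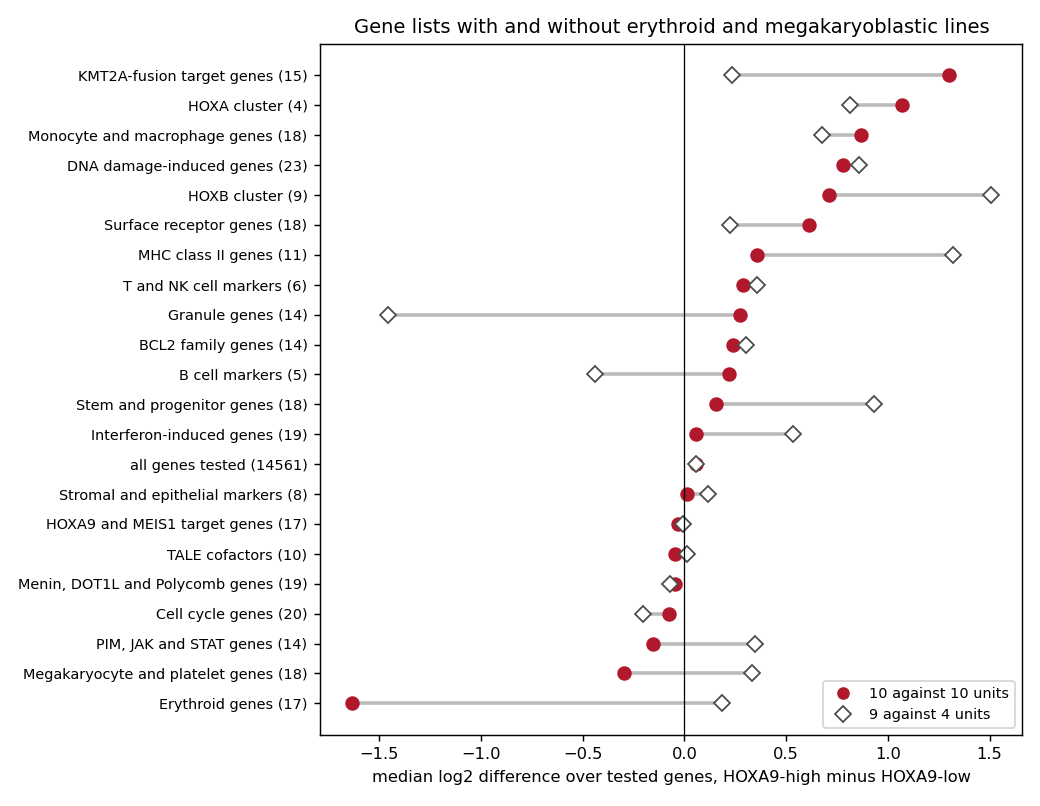
Median log2 difference, HOXA9-high minus HOXA9-low, over the tested genes of each list (number in brackets) for 10 against 10 units (filled circles) and for 9 against 4 units without erythroid and megakaryoblastic lines (open diamonds). The erythroid median goes from -1.63 to 0.19 and the granule median from 0.28 to -1.46, while the DNA damage-induced median stays at 0.78 and 0.86.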

How the data were processed

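The deposited values were linear probe set intensities of 54675 probe sets on 32 arrays, made with Affymetrix Expression Console per the submitters' processing notes; its version is not given in the sources used here. The number of arrays limits the precision. The members and gene lists were chosen with earlier results of these data known, and the DNA damage-induced list after its values were seen. Values were taken as log2(signal + 16) with no further scaling, so folds are on that scale and understate low genes. Each gene was read from its brightest probe set with 1 symbol: 41091 probe sets had 1, 1801 several and 11721 none, 62 controls aside. The probe set for HOXA9 is not in the name table, and its name comes from the definition of the comparison. Genes above 6.73, the median of all values, in at least 3 of 28 units were tested with limma 3.58.1 (R 4.3.3, moderated by mean-variance trend), two-sided, adjusted by Benjamini-Hochberg at 0.05, and the code was tested on simulated data. Named genes were the HOXA and TALE members, passing genes or the 10 smallest p per direction, and up to 4 passing or the 2 smallest-p members per list; others named to describe a list were chosen after their values were seen. Alternatives changed the pseudocount, filter, scaling, probe set, variance model, grouping and lines kept.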

Additional observations from a re-analysis of the deposited data

Results flagged for a closer look

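Among 63 genes or probe sets in each side, 126 groups of 10 units, 9 held a unit far from the others, its gap to the nearest one exceeding Dixon's critical share of the group's range; chance alone gives such a gap in about 1 in 20 groups. On the high side KMOE-2 was the unit apart for KCNQ1 (4.73, next 7.09), for CD5 (8.51, next 6.78) and for OAS2 (12.58, next 8.12). FKH-1 stood apart for EPCAM at 8.41 and KG-1/KG-1A for TGIF1 at 6.34. On the low side SH-2 stood apart for MIR34A at 6.06, OCI-M1 for KCNQ1 at 7.80, MO7E for SPINK2 at 10.28 and PL-21 for CDK4 at 12.15. The arrays left out for high background carried HOXA9 at 13.25 in NOMO-1 and 13.11 in GF-D8, above every ranked unit. The low side's highest value was 5.97. On these arrays MEIS1 was at 10.79 and 10.21 and MIR34A at 8.83 and 6.48. Their median signals were 198.4 in NOMO-1 and 243.3 in GF-D8, against 115.4 in FKH-1, the highest of the other arrays. Low levels on these arrays therefore cannot be set against those of the ranked units.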

How the results depend on the processing

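The count of 1 gene higher in HOXA9-high units was 2 with a pseudocount of 1, 3 with KG-1 and HL-60 alone in place of the averages, and 0 with a pseudocount of 64, no filter on low genes, without arrays of high GAPDH ratio, with that ratio as a covariate, without KMT2A-fusion lines, or with only RPMI lines (5 against 6). Setting the 16 units above a HOXA9 signal of 1000 against the 10 lowest, an alternative chosen after seeing the data, gave 4 higher genes and 1 lower (MAGED1). Leaving out single units gave 0 to 3 higher and 0 lower. The repeat's 3 higher genes became 1 under a slope on the HOXA9 level, with 1 lower without KMT2A-fusion lines and 1 higher and 2 lower in RPMI lines; single units gave 3 to 4 higher and 0 to 1 lower. MIR34A did not pass with a pseudocount of 64 (adjusted p = 0.103), no filter (0.0506) or RPMI lines alone (0.998). In RPMI lines KCNQ1, CPNE8 and LACC1 did not pass either (0.301, 0.151 and 0.373), nor did KCNQ1 and CPNE8 under the slope (0.188 and 0.183) or with 16 units (0.582 and 0.431). The HOXA10-AS/MIR196B probe set had an adjusted p of 0.768 in RPMI lines (difference 2.31) and differences of 1.737 to 2.001 with single units left out. Signs turned for TGIF2 (-0.0223) and PKNOX1 (-0.0447) under median centring, MEIS2 (0.0439 without high GAPDH ratios, 0.10 without KMT2A-fusion lines, 1.21 in RPMI lines), RNASE2 (-1.10) and NCAM1 (-0.39) in RPMI lines, and TGIF1 (0.0315 with 16 units). With single units left out TGIF2 ran from -0.0266 to 0.16, PKNOX1 from -0.014 to 0.14, MEIS2 from -0.69 to 0.0898 and TGIF1 from -0.72 to 0.023. The KMT2A-fusion target median was 0.38 in RPMI lines; the cause of these moves was not tested. No paired analysis was possible because each line has 1 array and the sides share no replicate numbers that pair lines.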
